A study of Mus musculus with 8 samples.

Results

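The 9 genes described here encode transcription factors that direct the formation of bone-forming osteoblasts: Runx2, Runx1 and their partner Cbfb, Atf4, Sp7, the homeobox genes Dlx5, Dlx3 and Msx2, and Twist1. They were taken by name as a functional group, and all 9 were found among the 21887 protein-coding genes of the mouse build used. Trimethylation of histone H3 at lysine 36 (H3K36me3) was measured by ChIP-seq, in which DNA bound to the marked histone is pulled down and sequenced, in stromal cells of the bone marrow, which grow attached and can turn into osteoblasts, adipocytes or chondrocytes. The donors were C57BL/6J mice homozygous for a floxed Setd2 gene (Setd2 fl/fl), and the cells were at passage 2. One group received a lentivirus for Cre recombinase, which removes the floxed part of Setd2 (KO), and the other a lentivirus for GFP, which leaves both floxed copies intact (WT). Both groups were kept in puromycin at 2 µg/ml for 4 days. Each genotype had 2 H3K36me3 libraries, and its peaks were called by the authors on each library against the Input library of that genotype and, separately, against its IgG library. The age and number of the mice, the share of cells that recombined, and whether the 2 libraries came from separate cultures are not stated in the labels, so p-values measure only the spread between these libraries.

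H3K36me3 is placed by Setd2, which travels with elongating RNA polymerase II, and the mark therefore lies over the bodies of transcribed genes and is scarce at their promoters. Runx2 is the factor without which osteoblasts do not form. It binds DNA through its Runt domain together with Cbfb, a non-DNA-binding partner shared with Runx1 and Runx3, and Sp7 acts downstream of Runx2. Dlx5, Dlx3 and Msx2 are homeodomain factors of skeletal and craniofacial development, Atf4 is a stress-responsive bZIP factor that osteoblasts need for protein synthesis and late differentiation, and Twist1 is a bHLH factor that holds Runx2 in check.

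The measure used throughout is coverage, the percent of a gene's annotated span that lies under peaks, and the values are from the Input lists unless IgG is named. Of the 9 genes, Atf4, Cbfb, Runx1 and Runx2 carried the mark in both WT libraries, Msx2 and Sp7 held a peak in a single WT library, and Dlx5, Dlx3 and Twist1 held none in any library. The 4 marked genes lost most or all of their coverage in KO. Mean coverage over the 9 genes was 0.959% and 0.850% in the KO libraries and 19.4% and 18.3% in the WT libraries, beside 2.92% and 3.72% in KO and 26.3% and 25.5% in WT over all protein-coding genes. Where no peak was called, no limit can be put on the signal, because the lists hold no read counts and the depth behind them is unknown.

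**Figure D1:**
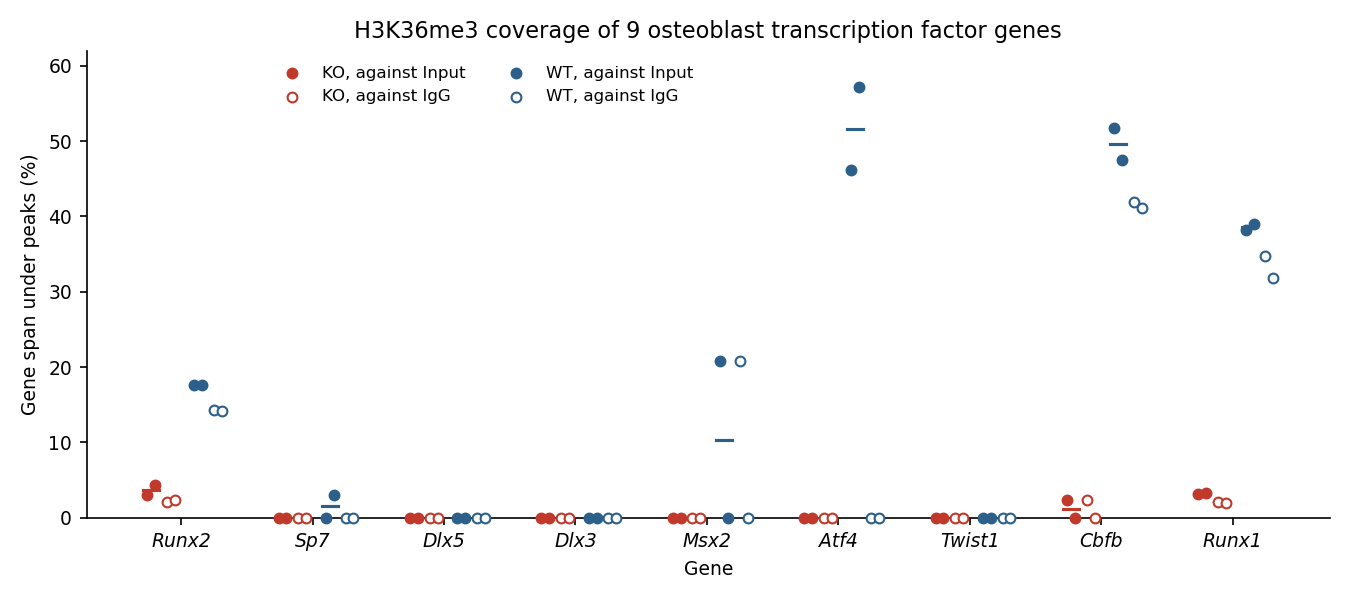
Percent of each gene's span under H3K36me3 peaks (y axis) for the 9 genes (x axis), with 1 point per library; filled points are peaks called against Input, open points against IgG, and bars are means of the 2 Input values. WT points of Runx2, Atf4, Cbfb and Runx1 lie above all KO points against Input, and Atf4 drops to 0% against IgG.

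The promoters of the 2 Runx genes are printed here. The start sites of Runx1 bound the stretches of that gene whose coverage is described further on. The sequences are those of RefSeq (GRCm38.p6), 250 bases before to 50 after a start, and the table used held such windows for 6 of the 9 genes, with 2 windows for Runx1. Capitals mark ACCACA, the core of the site bound by the Runt domain, searched on both strands (TGTGGT on the other); the core does not overlap itself. The windows are chr17:44814578-44814877 on the minus strand for Runx2, chr16:92826025-92826324 on the minus strand for the distal start of Runx1, and chr16:92697280-92697579 on the minus strand for its proximal start.
Runx2 promoter: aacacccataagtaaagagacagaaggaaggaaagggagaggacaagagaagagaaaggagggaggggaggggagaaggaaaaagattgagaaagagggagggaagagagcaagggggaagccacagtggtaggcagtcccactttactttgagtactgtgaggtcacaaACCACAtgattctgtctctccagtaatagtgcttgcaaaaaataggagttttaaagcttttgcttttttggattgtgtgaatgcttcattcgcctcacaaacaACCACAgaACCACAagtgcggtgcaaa
Runx1 distal promoter: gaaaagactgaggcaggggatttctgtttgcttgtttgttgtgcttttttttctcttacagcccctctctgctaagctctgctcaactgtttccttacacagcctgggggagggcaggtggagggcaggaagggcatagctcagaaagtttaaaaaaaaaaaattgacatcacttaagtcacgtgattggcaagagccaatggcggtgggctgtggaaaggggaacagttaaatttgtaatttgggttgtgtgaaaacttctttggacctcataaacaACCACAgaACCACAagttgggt
Runx1 proximal promoter: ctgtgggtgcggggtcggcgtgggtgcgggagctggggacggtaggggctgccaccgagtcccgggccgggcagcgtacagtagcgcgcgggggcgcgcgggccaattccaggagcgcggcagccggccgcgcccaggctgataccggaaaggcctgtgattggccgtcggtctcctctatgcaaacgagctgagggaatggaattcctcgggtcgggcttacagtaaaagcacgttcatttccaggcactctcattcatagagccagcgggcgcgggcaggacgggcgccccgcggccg
The Runx2 window held the core 3 times, at -80, 24 and 32 from the start, and the distal Runx1 window 2 times, at 29 and 37. The proximal Runx1 window held none of these letters. Of all 32851 promoter windows in the table, 16.8% held the core at least 1 time, 1.81% at least 2 times and 0.183% at least 3 times. The Runx2 window and the distal Runx1 window were poor in CG dinucleotides, with 2 in each, against 35 in the proximal Runx1 window. A match describes the letters and is no evidence of binding. None of the 7 windows of these genes held a base of a peak in any of the 4 libraries, against Input or IgG. Few windows did over all genes: 2.79% and 3.24% in KO and 4.92% and 4.77% in WT. With shares this low, 7 windows are too few to show a difference from other genes.

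Runx2 spans 318.8 kb on chromosome 17, from 44495987 to 44814797 (GRCm38), and is read from high to low coordinates. Its coverage was 3.06% and 4.39% in KO and 17.6% and 17.6% in WT. Both KO libraries lay below both WT libraries, and the WT libraries were closer to each other than the KO libraries were. Coverage fell to 3.73% ± 0.943 in KO, against 17.6% ± 0.0386 in WT (SD, n = 2 each), a change of -13.9 percentage points with a 95% interval from -19.98 to -7.81 (limma adjusted p 0.00471). The WT level lies near the middle of the genome: 52.5% of protein-coding genes had a lower mean WT coverage. Called against IgG, coverage was 2.14% and 2.36% in KO and 14.3% and 14.2% in WT, and the fall of 12.0 points passed with no filter on coverage (limma adjusted p 0.00795). Where each library was scaled to its own mean coverage, which takes out any loss shared in proportion by all genes, Runx2 was 6.36 points higher in KO and did not pass (limma adjusted p 0.0596). That scaling raises KO values and lowers WT values. The unscaled KO coverage of Runx2 lay close to that of the whole genome in the KO libraries, 2.63% and 3.47%. The scaling moved the median change of all tested genes to -16.7 points, against -47.7 points unscaled.

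Runx1, which shares the Runt domain with Runx2 and is best known as a regulator of blood formation, spans 224.6 kb on chromosome 16, from 92601466 to 92826074. Its coverage was 3.19% and 3.25% in KO and 38.2% and 39.1% in WT. The groups did not overlap, and the libraries of each genotype differed by less than 1 point. Coverage fell to 3.22% ± 0.0469 in KO, against 38.6% ± 0.642 in WT, a change of -35.4 points (95% interval -40.8 to -29.99, limma adjusted p 0.000291). Against IgG the values were 2.09% and 1.91% in KO and 34.8% and 31.8% in WT (limma adjusted p 0.00193 with no filter). After scaling to mean coverage the change was -7.41 points and did not pass (limma adjusted p 0.0684). Markers of blood cells carried the mark in the same WT libraries. Mean coverage of 8 haematopoietic markers was 1.96% and 8.01% in KO and 29.4% and 38.7% in WT, and 7 of the 8 had at least 10% in both WT libraries. The other, Cd79b, had 0% and 31.8% in KO and 0% and 38.2% in WT. In KO replicate 2, Cd79b and Lyz2 (11.4%) were the highest of the 8. The 12 stromal markers averaged 2.17% and 1.95% in KO and 46.4% and 42.6% in WT, with at least 10% in both WT libraries for 10 of them, no peak over Thy1, and 3.33% and 0.812% over Lepr in WT. Against IgG the haematopoietic markers averaged 1.61% and 7.71% in KO and 16.6% and 23.7% in WT, and the stromal markers 0.436% and 0.686% in KO and 21.3% and 18.7% in WT. The part of blood cells in the Runx1 values was not tested, and in bulk chromatin fewer cells of a type and less mark per cell cannot be told apart.

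Cbfb, the common partner of the Runx factors, spans 47.3 kb on chromosome 8, from 105170674 to 105217989, and is read toward higher coordinates. Its coverage was 2.38% and 0% in KO and 51.7% and 47.5% in WT. KO replicate 2 held no peak over the gene, and both KO libraries lay far below both WT libraries. Coverage fell to 1.19% ± 1.68 in KO, against 49.6% ± 3.001 in WT, a change of -48.4 points (95% interval -56.0 to -40.7, limma adjusted p 0.000321). Against IgG it was 2.38% and 0% in KO and 41.9% and 41.1% in WT (limma adjusted p 0.00145 with no filter). After scaling to mean coverage the change was -21.99 points and still passed (limma adjusted p 0.0407). The gene contains the long non-coding RNA gene AI225912, of 3.37 kb, which had 0% in both KO libraries and 91.4% and 91.5% in WT.

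Atf4 is a short gene of 2.36 kb on chromosome 15, from 80255184 to 80257545. It had 0% in both KO libraries and 46.2% and 57.2% in WT. Coverage fell to 0% in KO, against 51.7% ± 7.75 in WT (95% interval of the change -64.8 to -38.5, limma adjusted p 0.000993). In each WT library it came from a single peak, of 1846 and 2223 bp, which began 1.27 and 1.01 kb after the start and ran 755 and 873 bases past the annotated end. This call was lost against IgG, where Atf4 had no peak in any library and the nearest WT peaks lay 1.48 and 1.22 kb away. The surroundings kept their WT peaks against IgG: the 10 kb on either side of Atf4 were covered over 0% and 1.83% in KO and 50.0% and 50.4% in WT, and against Input over 0% and 1.83% in KO and 53.8% and 60.5% in WT. Most of that lies in Mief1, the neighbour at lower coordinates, with 3.73% and 10.8% in KO and 91.3% and 89.8% in WT against Input, and in Rps19bp1 on the other side, with 0% in both KO libraries and 24.2% and 37.9% in WT.

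The test covered the 10809 protein-coding genes whose coverage averaged 10% or more across the libraries, and 4 of the 9 genes were among them. These 4 passed the filter through their WT coverage, so their count is given only as a description: all 4 fell, beside 92.6% of the genes tested. With no filter, 6 of the 9 genes had a peak and 4 of these 6 fell, beside 58.5% of the 18288 genes with a peak. In the same 4 genes both KO libraries lay below both WT libraries, as in 94.8% of the genes tested. The median change of the 4 was -41.9 points, beside -47.7 points over all genes tested. Against IgG with no filter, 4 of the 9 genes had a peak and 3 of these 4 fell (Runx2, Runx1 and Cbfb), beside 56.2% of the genes with a peak. After scaling to mean coverage, 2 of the 4 genes tested were lower in KO (Atf4 and Cbfb), beside 45.2% of all genes tested. In WT the order of mean coverage was Atf4, Cbfb, Runx1, Runx2, of which Atf4 and Cbfb overlapped in their library values and the others did not.

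The number of peaks was lower in KO too. Runx2 held 17 and 24 peaks in KO and 79 and 77 in WT, Runx1 held 13 and 12 in KO and 83 and 93 in WT, and Cbfb held 2 and 0 in KO and 23 and 21 in WT. For these genes and for Atf4 an exact permutation test (two-sided) gave p = 0.333, below which a design of 2 against 2 libraries cannot go. Per 100 kb of span, the KO libraries had 5.33 and 7.53 peaks over Runx2, 5.79 and 5.34 over Runx1, and 4.23 and 0 over Cbfb, beside 4.50 and 5.86 over the whole genome. The WT libraries had 24.8 and 24.2 over Runx2, 37.0 and 41.4 over Runx1, and 48.6 and 44.4 over Cbfb, beside 8.92 and 9.05 over the genome. In KO the density over these 3 genes lay between 0 and 7.53, around the genome values, and in WT it lay well above them.

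Broad peaks were found over these genes in WT and not in KO, as in the whole lists. Of all peaks, 0.0742% and 0.0690% in KO and 8.61% and 7.57% in WT were wider than 2 kb. Over Runx2, 1 and 0 WT peaks were that wide, of 79 and 77. The widest peak over Runx2 was 949 and 881 bp in KO and 2001 and 1658 bp in WT. Over Runx1 it was 729 and 826 bp in KO and 5036 and 6097 bp in WT, and over Cbfb it was 578 bp in KO replicate 1 and 3886 and 2403 bp in WT. No KO peak over the 3 genes was wider than 1 kb, while 11 and 14 WT peaks over Runx2, 30 and 25 over Runx1 and 7 and 7 over Cbfb were. The median width differed less, at 524 and 559 bp in KO and 598 and 612 bp in WT for Runx2. For Runx1 it was 523 and 593 bp in KO and 741 and 664 bp in WT. Over the whole lists the median was 566 and 568 bp in KO and 688 and 668 bp in WT, so the WT medians over Runx2 lay below it. With peaks within 1 kb of each other merged, the widest stretch over Runx1 was 2205 and 1711 bp in KO and 21057 and 34454 bp in WT, and over Runx2 it was 3210 and 1825 bp in KO and 5058 and 6107 bp in WT.

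**Figure D2:**
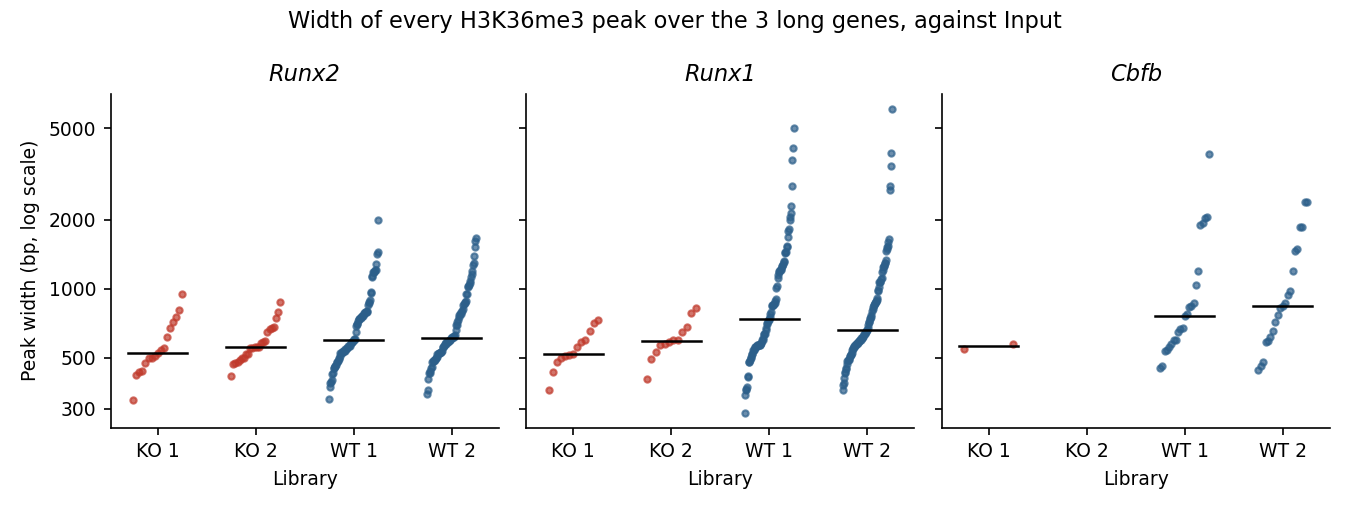
Width of every H3K36me3 peak called against Input over Runx2, Runx1 and Cbfb (y axis in bp, log scale), by library (x axis), with 1 point per peak and a line at the median. All KO points lie under 1 kb, and the widest WT peaks reach 2001 bp over Runx2, 6097 bp over Runx1 and 3886 bp over Cbfb.

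The place of the peaks differed between the 2 Runx genes. Runx1 can be read from a distal start at 92826074 and from a proximal start at 92697329, and the proximal start splits the span into a first stretch of 128.7 kb between the starts and a second of 95.9 kb that both kinds of transcript share. From the proximal start to the end, coverage was 1.26% and 1.21% in KO and 61.7% and 62.5% in WT. Between the distal and the proximal start, it was 4.62% and 4.78% in KO and 20.6% and 21.6% in WT. In WT the shared stretch was therefore covered 41.1 points more than the stretch between the starts, and 37.6 points more against IgG. In KO the order was the other way, with 2 and 2 peaks in the shared stretch and 11 and 10 between the starts.

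The change at the proximal start was abrupt in WT. No peak lay on the proximal start in any library. The last WT peak before it ended 16.8 and 16.7 kb upstream, and the first WT peak after it lay 5.67 and 3.34 kb downstream. By 10 equal segments of the span, numbered from the distal start, WT coverage was 1.38% and 1.91% in the sixth segment, which holds the proximal start, and 80.5% and 78.4% in the seventh, where KO had 0% in both libraries. The widest and highest-scoring WT peaks of the gene lay in the shared stretch, 160.5 and 156.3 kb from the distal start. The lncRNA gene Gm30281, of 5.03 kb, lies in the stretch between the starts and had 0% and 8.07% in KO and 28.2% and 53.6% in WT.

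**Figure D3:**
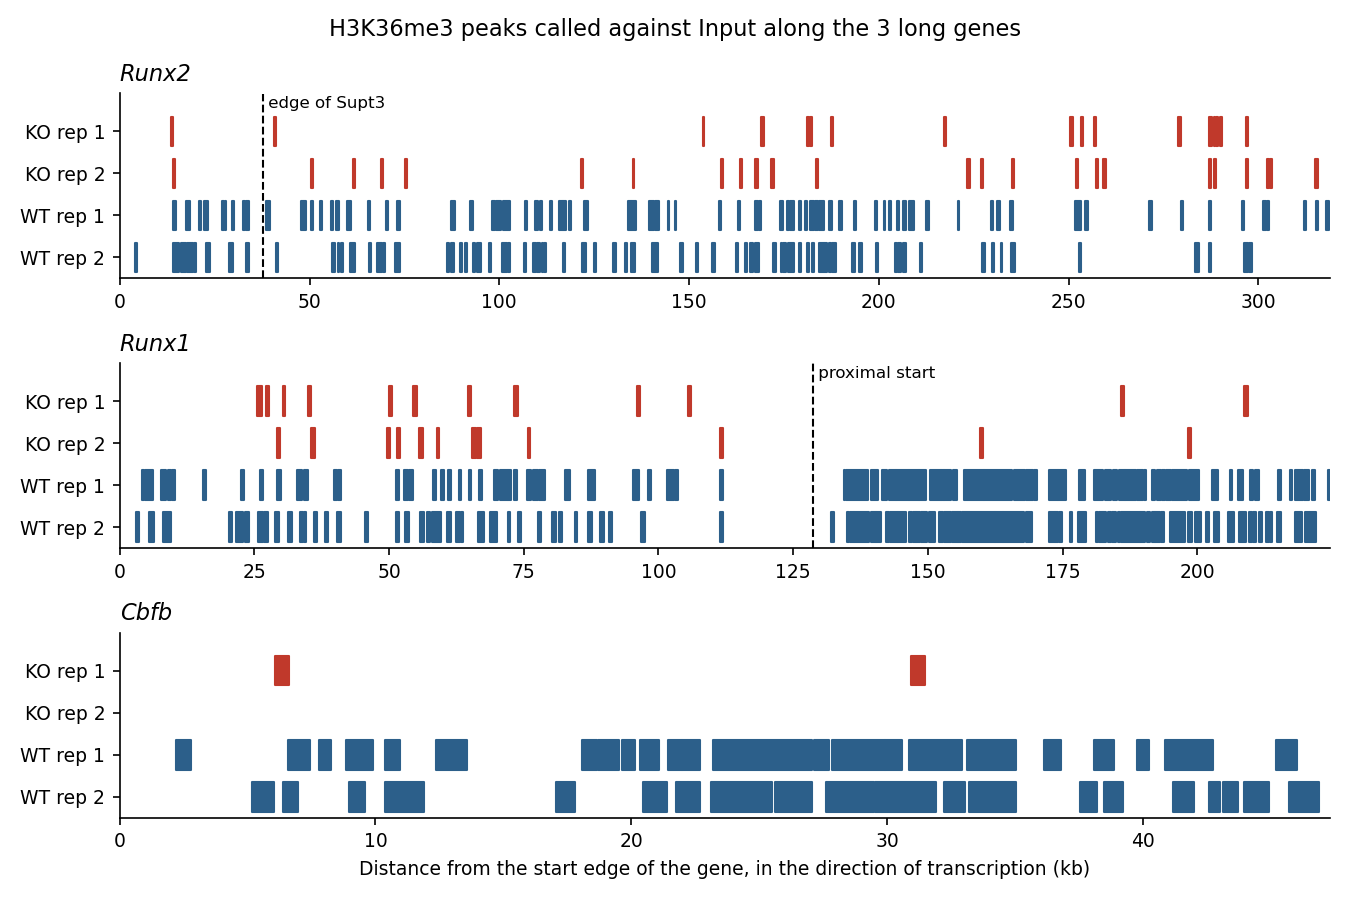
Position of every H3K36me3 peak called against Input along Runx2, Runx1 and Cbfb (x axis, distance from the start edge in kb, in the direction of transcription), with 1 row per library. WT peaks fill Runx1 after its proximal start, where the KO libraries hold 2 peaks each, and are scattered over Runx2.

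Runx2 showed no such block by segments. Its span was not split by start sites, since the promoter windows used held a single start for it. Its mean WT coverage against Input was highest in the sixth segment, with 7.65% and 8.49% in KO and 30.8% and 37.4% in WT, and was low toward the end of the gene. In WT replicate 1 the fourth segment was slightly higher, at 31.5%, and against IgG the fourth had 31.5% and 22.5% in WT and the sixth 24.4% and 27.5%. In the ninth segment coverage was 4.11% and 4.46% in KO and 3.71% and 3.002% in WT, and in the last segment it was 8.03% and 10.8% in KO and 12.7% and 6.70% in WT. In the last segment the groups overlapped, and in the ninth both KO values lay above both WT values. Against IgG the last segment had 1.37% and 5.61% in KO and 5.66% and 3.34% in WT. The last segment holds the single stretch of these 9 genes that was covered in all 4 Input lists, 296 bp from 44527400 to 44527695, and no IgG list had a peak there.

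The first part of Runx2 lies inside another gene. Supt3, a subunit of a histone acetyltransferase complex, starts within Runx2 on the opposite strand and shares 37.7 kb with it. The shared part had 1.44% and 1.30% in KO and 16.6% and 21.8% in WT. The rest of Runx2 had 3.28% and 4.81% in KO and 17.8% and 17.0% in WT, and the rest of Supt3 had 3.11% and 4.97% in KO and 5.55% and 6.71% in WT. The part outside Supt3 makes up 88.2% of the Runx2 span, so its coverage necessarily lies near that of the whole gene. The peaks carry no strand, so the mark over the shared part cannot be given to either gene. The lncRNA gene Runx2os3, of 0.737 kb, also lies within Runx2, outside Supt3. It had 0% and 55.4% in KO and 100% and 16.4% in WT, so the groups overlapped, and no IgG list had a peak over it.

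Against Input, Cbfb was most covered in its middle in WT. The sixth and seventh segments from its start had 0% and 0% in KO replicate 2, 0% and 12.2% in KO replicate 1, 96.1% and 89.1% in WT replicate 1, and 86.3% and 91.6% in WT replicate 2. Against IgG the sixth kept these WT values, while the seventh had 45.9% and 40.8% in WT. The first segment had 0% in both KO libraries and 11.8% and 0% in WT. The first WT peak began 2.21 and 5.18 kb after the start. Of all its segments, the last differed most between the WT libraries, with 21.3% and 68.0%.

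**Figure D4:**
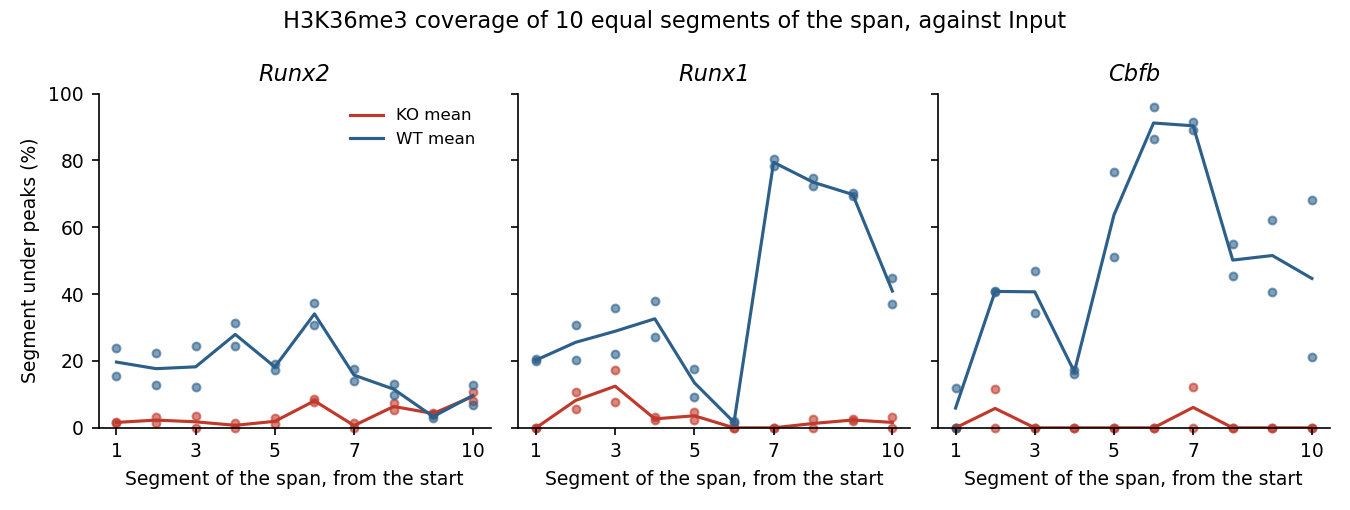
Percent of each of 10 equal segments of the span under peaks (y axis) from the start of the gene (x axis) for Runx2, Runx1 and Cbfb; points are libraries and lines are means of the 2 libraries of KO and of WT. In WT, Runx1 goes to 79.4% in its seventh segment next to 1.64% in the sixth, and in the last 2 segments of Runx2 the KO and WT means lie close together.

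The 2 WT libraries shared 50.4% of their covered bases over Runx1 (common over union), 47.7% over Cbfb, 80.8% over Atf4 and 22.8% over Runx2, beside 44.0% over the whole lists. The equal WT percentages of Runx2 thus came from partly different positions. The 2 KO libraries shared 0.879% over Runx1, no base over Cbfb and 5.42% over Runx2, beside 5.22% over the whole lists. Of the KO bases over Runx1, 12.4% and 34.5% lay under peaks of both WT libraries, which covered 25.9% of its span. Over Runx2 the shares were 6.55% and 15.1%, beside 6.55% of its span.

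Sp7, the zinc finger factor downstream of Runx2, spans 10.4 kb on chromosome 15, from 102356603 to 102367035. It had 0% in both KO libraries and 0% and 3.01% in WT, from a single peak of 314 bp in WT replicate 2 that was not called against IgG. With no filter on coverage the change of -1.50 points did not pass (95% interval -5.40 to 2.39, limma adjusted p 0.369). Its neighbours were marked: Aaas, 5.84 kb away, had 4.06% and 0% in KO and 72.2% and 68.4% in WT, and Sp1, a general factor of the same family, had 0% and 1.91% in KO and 55.0% and 40.8% in WT.

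Msx2, a homeodomain factor of skull and tooth development, spans 5.90 kb on chromosome 13, from 53466881 to 53472780. It had 0% in both KO libraries and 20.8% and 0% in WT. The WT value came from a single peak of 1226 bp in WT replicate 1, near the end of the gene, which was also called against IgG. With no filter the change of -10.4 points did not pass (95% interval -34.3 to 13.6, limma adjusted p 0.340). The lncRNA gene Gm33763 spans all of Msx2 and had 0% and 7.24% in KO and 10.1% and 7.60% in WT.

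Dlx5, on chromosome 6 from 6877801 to 6882068, Dlx3, on chromosome 11 from 95120117 to 95125296, and Twist1, on chromosome 12 from 33957671 to 33959831, had 0% in all 4 libraries against Input and against IgG. These 3 of 9 genes had no base under a peak in either WT library, which held for 25.6% of all protein-coding genes. They are short, with spans of 4.27, 5.18 and 2.16 kb. The nearest peak to Dlx5 lay 12.8 and 29.4 kb away in KO and 2.23 and 1.48 kb away in WT, and against IgG 12.8 and 29.4 kb away in KO and 9.12 and 1.48 kb away in WT. For Twist1 it lay 11.7 and 7.92 kb away in KO and 4.50 and 6.87 kb away in WT, and against IgG 19.2 and 8.24 kb away in KO and 4.50 and 6.87 kb away in WT. Dlx3 was the exception in order, with the nearest peak 7.19 and 2.89 kb away in KO and 52.0 and 48.2 kb away in WT. Against IgG the order was the same, with 16.4 and 30.8 kb in KO and 52.0 and 39.5 kb in WT. Of the neighbouring Dlx genes, Dlx6 had 0% in both KO libraries and 0% and 15.3% in WT, and Dlx4 had 0% in all 4.

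Of 13 paralogs, 4 passed the coverage filter and all 4 fell, beside 92.6% of the genes tested. Runx3, the third Runt factor, had 2.61% and 0.982% in KO and 34.4% and 30.5% in WT (limma adjusted p 0.000785). Atf5 had 0% in both KO libraries and 55.7% and 56.8% in WT (limma adjusted p 0.000211), but against IgG with no filter it did not pass (limma adjusted p 0.0571). The Sp family members Sp1 and Sp3 fell by 46.9 and 51.7 points. The other 9 were below the filter, and Sp8, Dlx1, Dlx2, Dlx4 and Msx3 had no WT peak. Msx1 had 0% in both KO libraries and 28.5% and 1.197% in WT. Twist2 had 5.29% and 4.57% in KO and 3.42% and 2.44% in WT.

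Of 46 other transcription factors and cofactors of osteoblasts, 22 passed the filter and all 22 fell, beside 92.6% of the genes tested, and 24 were below it, 7 of them with no WT peak. With no filter 29 of the 39 regulators with a peak fell, beside 58.5% of genes. The median change of the 22 was -46.8 points, beside -47.7 points over all genes tested. Of the 22, the largest falls were in 3 genes: Hdac3, a histone deacetylase, fell by 74.7 points, Tle3, a Groucho-type corepressor, by 74.5 points, and Ep300, a histone acetyltransferase, by 72.4 points. The smallest were in Tcf7, a Wnt effector, with 16.8 points, which did not pass with no filter (limma adjusted p 0.0538) or against IgG (limma adjusted p 0.207), Prrx1, a homeobox factor of limb mesenchyme, with 25.5 points, and Junb, an AP-1 subunit, with 30.6 points, and Junb had no peak against IgG. Fos, another AP-1 subunit, kept the most in KO, with 16.3% and 15.4% in KO and 59.8% and 48.4% in WT, and was chosen for mention after its values were seen. Against IgG its WT coverage was 59.8% and 0%, and its change did not pass with no filter (limma adjusted p 0.627). Of 18 products that the osteoblast factors regulate, 8 passed the filter and 6 fell, beside 92.6% of the genes tested. The largest falls were in the type I collagen chains Col1a1 and Col1a2, by 67.1 and 48.2 points, and in Sparc, a collagen-binding matrix protein, by 65.0 points. None of these 3 calls held against IgG with no filter. Col1a1 had no peak in any library there. Col1a2 had 0% and 1.51% in KO and 2.59% and 8.63% in WT (limma adjusted p 0.218). Sparc had 2.16% and 2.25% in KO and 28.1% and 15.2% in WT (limma adjusted p 0.0507), just short of the threshold of 0.05. With the coverage filter kept, 1 product fell against IgG. That product was not identified, so the call of Sparc may hold at that setting. Fgfr2, a fibroblast growth factor receptor, fell by 20.7 points. The 2 that did not pass were Mmp13, a collagenase, with 5.12% and 7.09% in KO and 33.2% and 16.1% in WT (limma adjusted p 0.0613), and Bglap2, an osteocalcin gene, with 0% and 57.8% in KO and 0% in both WT libraries (limma adjusted p 0.267). Bglap2 passed the filter through KO replicate 2 alone, and reads from its near-identical copies could be split among them. Against IgG with no filter, 2 of the 14 products with a peak fell, beside 56.2% of genes.

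**Figure D5:**
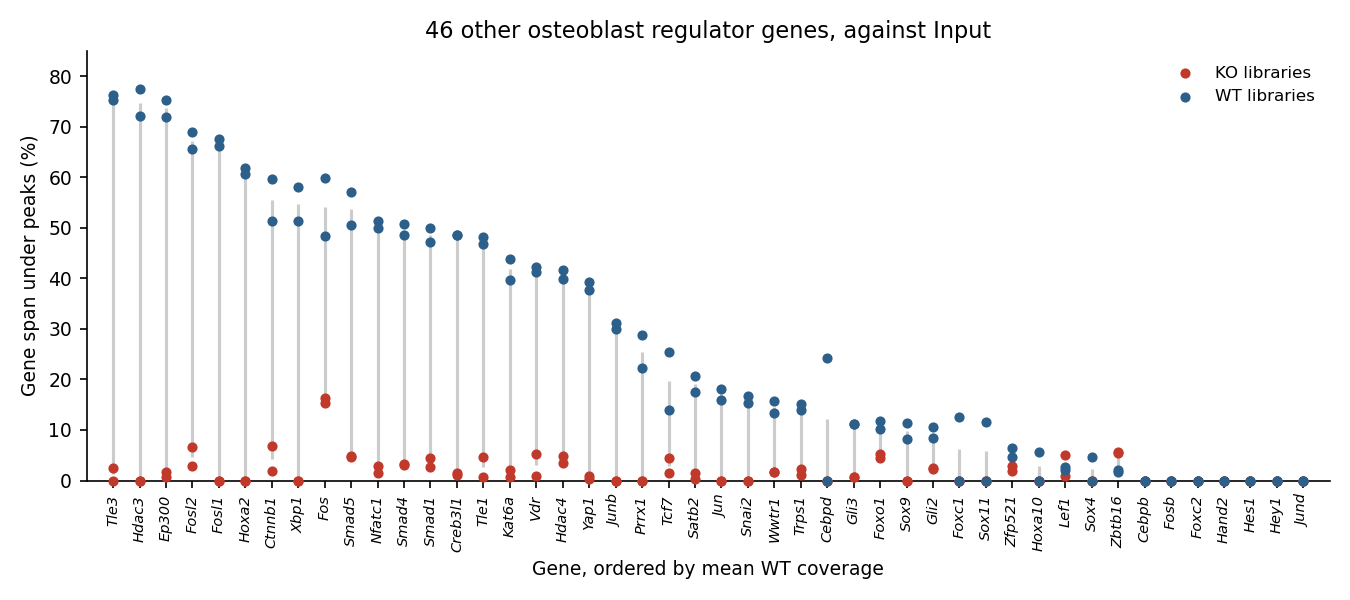
Percent of the gene span under H3K36me3 peaks called against Input (y axis) for 46 other transcription factors and cofactors of osteoblasts (x axis, ordered by mean WT coverage), with 1 point per library and a grey line joining the KO and WT means. KO points lie near 0% for most genes, with Fos at 16.3% and 15.4%, while WT points run up to 77.5% (Hdac3).

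The genes with the most similar values were sought over the 4 libraries, among protein-coding genes of 0.5 to 2 times the span. The distance used is Euclidean, in percentage points. Bcas3 and Fam227b lay nearest to Runx2, at 0.963 and 0.988 points among 1203 genes, and Arhgef12 and Osbpl9 nearest to Runx1, at 1.33 and 1.70 points among 1803. Dock6 and Tasor2 lay nearest to Cbfb, at 2.01 and 2.03 points among 6430, and Trpt1 and Arl6ip4 nearest to Atf4, at 0.671 and 0.721 points among 2940. Setd2 itself had 0.690% and 1.70% in KO and 66.4% and 60.5% in WT, which does not test whether its exons are present.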

How the data were processed

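H3K36me3 ChIP-seq libraries, 2 per genotype, were grouped by their titles. The submitters' processing notes name Bowtie2, without a version, and the GRCm38 build. Fixation was in formaldehyde at 1% for 10 min, per the labels' protocols. The authors deposited 8 peak lists, each called on a single library against Input or IgG, with a score per peak; peak names start with MACS, and neither its version and settings nor the scale of the score is stated in the labels or files. The smallest score was 13.01. Scores served only for description and filtering inside each list. A genotype's 2 libraries shared 1 Input and 1 IgG library. Read depth is unknown, and the number and width of called peaks depend on it.

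Peaks on the autosomes and sex chromosomes were intersected with RefSeq gene spans (GRCm38.p6), counting a peak from 1 bp of overlap. Strand and start sites came from the RefSeq promoter table. Genome length was the sum of the last annotated base of each chromosome. Differences between KO and WT in percent coverage were tested in R 4.3.3 by limma 3.58.1 (eBayes, trend and robust both on, using statmod 1.5.0), for protein-coding genes with a mean of at least 10%, with Benjamini-Hochberg adjustment over all genes tested and a threshold of 0.05. The limma step was tested on simulated data. Summaries used Python 3.11.15 with numpy 2.4.6 and pandas 2.3.3.

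The 9 genes, the lists of paralogs, regulators, products and markers, and the rule for other genes named (overlapping and nearest genes, up to 3 listed genes with the largest and with the smallest falls, the 2 most similar genes) were chosen with earlier results of these data known. The alternatives were the IgG lists, peaks at or above the median score, scaling to mean coverage, other filters, spans extended by 2 kb, a replicate block, other limma options, merged peaks and leaving out each library.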

Additional observations from a re-analysis of the deposited data

How the results depend on the processing

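Scaled to the mean coverage of each library, Runx2 turned 6.36 points higher in KO, and Runx1 changed by -7.41 points with no call. Of the 9 genes, 2 of the 4 tested were then lower in KO. So were 14 of the 22 other regulators tested and 2 of the 8 products tested, beside 45.2% of all genes tested. Against IgG the change of Atf4 was 0 with and without a filter, and Runx2 was below the filter. With the filter, Cbfb and Runx1 were the only ones of the 9 genes tested, and both fell, beside 91.4% of all genes tested. So did 1 product, out of a number tested that is not given here. With no filter, 3 of the 4 genes with a peak and 2 of the 14 products with a peak fell, beside 56.2% of all genes with a peak. The 41.1 points between the stretches of Runx1 in WT became 37.6 against IgG. With a filter of 25% the counts were 2 of the 9 genes, 14 regulators, 3 products and 2 paralogs, since fewer genes were tested. Of all genes tested there, 98.6% were lower in KO. With peaks at or above the median score 3 products fell, out of a number tested that is not given here, and Runx2 was below the filter. At that setting 94.4% of all genes tested were lower in KO. For the rest the cause was not tested. With the replicate number as a block, Runx2 changed by -13.9 points and the call of each of the 4 genes was kept. Then all 4 of the genes tested fell, beside 92.5% of all genes tested. KO and WT libraries of the same number did not deviate together (correlation of the differences -0.00333 over 10809 genes). Leaving out each library gave changes of Runx2 from -14.6 to -13.2 points. Such a fit leaves 1 library in a genotype, so its calls are not given. The spread then comes from the genotype with 2 libraries, and the lone library is assumed to vary like it. For Atf4 without a WT library the spread rests on 2 KO values of 0. Peak numbers over the 3 long genes stayed lower in KO in every alternative, including one chosen after seeing the data (peaks with the same edges against IgG). Depth is unknown and limits what a missing peak means, most of all over the short genes.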
